A study of Homo sapiens with 12 samples.

Results

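The 10 genes followed here encode the transcription factor ATF4 and its partners, competitors and cofactors, and their expression was compared in neuroblastoma (NB) cells treated with Erastin. They are ATF4, ATF3, ATF5, DDIT3, CEBPB, CEBPG, CEBPD, JDP2, TRIB3 and NUPR1. They were found by gene name and are 10 of the 58735 gene rows in the deposited count tables. Erastin blocks the cystine/glutamate antiporter, and the study asked how NB cells respond to the ferroptosis that this brings about. RNA was sequenced from the human NB cell lines KELLY, which carries a MYCN amplification, and SK-N-AS, which does not. Erastin was given at 1 µM to KELLY and at 2 µM to SK-N-AS, control cells received DMSO, and all were collected at 24 h. There were 3 samples in each of the 4 groups, grown as triplicate wells of a plate, so that the spread between them may be technical. Cell line and dose cannot be told apart in any comparison between the lines.

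When a cell lacks an amino acid or meets other stress, kinases phosphorylate the initiation factor eIF2alpha. Bulk translation then falls while translation of the ATF4 mRNA goes up, a programme known as the integrated stress response. ATF4 is a basic leucine zipper (bZIP) protein, binds DNA as a dimer, often with a C/EBP protein such as C/EBPγ (CEBPG) or C/EBPβ (CEBPB), and switches on genes of amino acid import and synthesis, tRNA charging and redox balance. ATF3, ATF5 and DDIT3 (CHOP) are bZIP genes of the same pathway, of which ATF3 mostly represses and DDIT3 is known for its part in cell death under lasting stress. JDP2 is a close relative of ATF3 that represses AP-1 and CRE sites. TRIB3 is a pseudokinase that binds ATF4 and damps it, and NUPR1 is a small chromatin-associated stress protein. CEBPD encodes C/EBPδ, a bZIP factor of the acute-phase response.

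ATF4 with a C/EBP partner is known to bind a composite site that joins C/EBP letters to ATF letters. The letters TGATGNAA were searched on both strands of the RefSeq promoter windows (GRCh38.p14). These reach from 250 bases before to 50 bases after a gene's start. Only 1 window, and so 1 start, was searched per gene. It need not be the GENCODE start given below, and other starts of a gene were not searched. Of 27305 windows in the table, 3.67% held them. Windows were in the table for 8 of the 10 genes, all but CEBPD and NUPR1, and 1 of these 8 held the composite letters. This was ATF3 (chromosome 1, plus strand), and the 250 bases before its RefSeq start at chr1:212565157-212565406 are shown because they carry the match, in capitals, which begins at -191.

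ATF3: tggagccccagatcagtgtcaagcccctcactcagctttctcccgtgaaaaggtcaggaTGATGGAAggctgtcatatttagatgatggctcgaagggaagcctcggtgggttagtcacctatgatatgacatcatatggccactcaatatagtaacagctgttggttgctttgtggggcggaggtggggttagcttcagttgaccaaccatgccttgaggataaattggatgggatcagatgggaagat

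Of 43 known ATF4 target genes listed for comparison, 34 had a window and 10 of these held the composite letters, a share of 29.41%. Short stretches of 5 of them are shown to allow a comparison with the ATF3 match. The targets with a match that are not shown were SLC3A2, IARS1, MARS1, NARS1 and FGF21. ASNS makes asparagine, CHAC1 degrades glutathione, SLC7A1 imports arginine, and AARS1 and CARS1 charge tRNAs with alanine and cysteine. The capitals mark the composite letters, and each line is written on the strand that holds the match. It was the minus strand for ASNS (chr7:97872459-97872486), CHAC1 (chr15:40953252-40953279) and SLC7A1 (chr13:29595664-29595691). For AARS1 (chr16:70289676-70289703) and CARS1 (chr11:3057408-3057435), as for ATF3 (chr1:212565206-212565233), it was the plus strand.

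ATF3: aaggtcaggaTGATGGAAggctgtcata
ASNS: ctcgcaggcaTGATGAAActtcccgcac
CHAC1: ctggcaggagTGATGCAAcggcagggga
SLC7A1: ggcgcactgcTGATGAAAcctggcgccg
AARS1: ctaacttggcTGATGCAActgcgagaaa
CARS1: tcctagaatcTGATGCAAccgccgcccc

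Among 38 windows of other bZIP genes, 0 held the composite letters. The AP-1 letters TGANTCA, present in 7.76% of all windows, were found in ATF5 at -188 and DDIT3 at -241, both as TGACTCA. The C/EBP letters TTGCNNAA, present in 10.56% of all windows, were found in ATF5 at -104. The CRE letters TGACGTCA, present in 1.98%, were in 0 of the 8 windows. The matches in these genes did not overlap each other. A match is a description of letters in this window, and no binding was measured.

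In GENCODE 44 (GRCh38), ATF4 lies at chr22:39519695-39522683 on the plus strand, ATF3 at chr1:212565334-212620777 (plus), ATF5 at chr19:49928702-49933935 (plus) and DDIT3 at chr12:57516588-57521737 (minus). CEBPB lies at chr20:50190830-50192668 (plus), CEBPG at chr19:33373685-33382686 (plus), JDP2 at chr14:75427716-75474111 (plus), TRIB3 at chr20:362835-397559 (plus), NUPR1 at chr16:28532708-28539008 (minus) and CEBPD on chromosome 8. Counts cover the exons of each gene.

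Total counts lay between 24169796 and 29835670 per sample. Levels below are CPM (counts relative to library size) after TMM scaling over all 12 samples, and levels are compared between genes only per kilobase of the MANE Select mRNA. MYCN lay between 4523 and 6558 CPM in the KELLY samples and was at most 0.414 CPM in SK-N-AS. Of 8 mesenchymal NB markers listed (such as VIM and YAP1), 7 were higher in SK-N-AS than in KELLY with DMSO at an adjusted p under 0.05 from edgeR, against 30.3% of all genes tested. With Erastin none of them met either rule in either line, and the 7 tested in KELLY had log2 fold changes of -0.42 to -0.02. Of 8 blood cell markers, PTPRC lay between 454 and 620 CPM in SK-N-AS and at 0 in KELLY. The other 7 summed to 0 in SK-N-AS with DMSO and to a mean of 0.859 CPM with Erastin. In KELLY the 8 markers summed to between 0.0350 and 15.3 CPM with DMSO and between 0.116 and 5.29 CPM with Erastin. The highest of each was replicate 1, where the globin genes HBB and HBA2 had 208 and 178 counts with DMSO and 91 and 37 counts with Erastin. Their part in the results was not tested. In bulk RNA, fewer cells that express a gene and less of its RNA per cell cannot be told apart.

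In SK-N-AS cells, Erastin raised 7 of the 10 genes. ATF4 itself went up 2.85-fold, JDP2 3.35-fold, ATF3 2.10-fold, TRIB3 2.08-fold, and CEBPG and CEBPB 1.82-fold each. NUPR1 went from near absence to a low level, and it passed the filter on low counts only through its Erastin samples. ATF5, CEBPD and DDIT3 did not pass the test. Calls rest on edgeR's quasi-likelihood test and on either of 2 rules. The threshold of the methods asks for an unadjusted p up to 0.05 with a change of 1.5-fold or more, and the stricter rule for a p under 0.05 after Benjamini-Hochberg adjustment across the genes tested. The same 7 genes passed by either rule, and 6 of 9 did where 10 counts were asked of every sample. Over all 16095 genes tested in SK-N-AS, 2.67% met the threshold of the methods, 1.34% in the upward direction, and 0.46% rose at an adjusted p under 0.05. Every Erastin sample lay above every DMSO sample for 8 of the 10 genes, the 7 and DDIT3, against 6.98% of all genes tested.

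**Figure D1:**
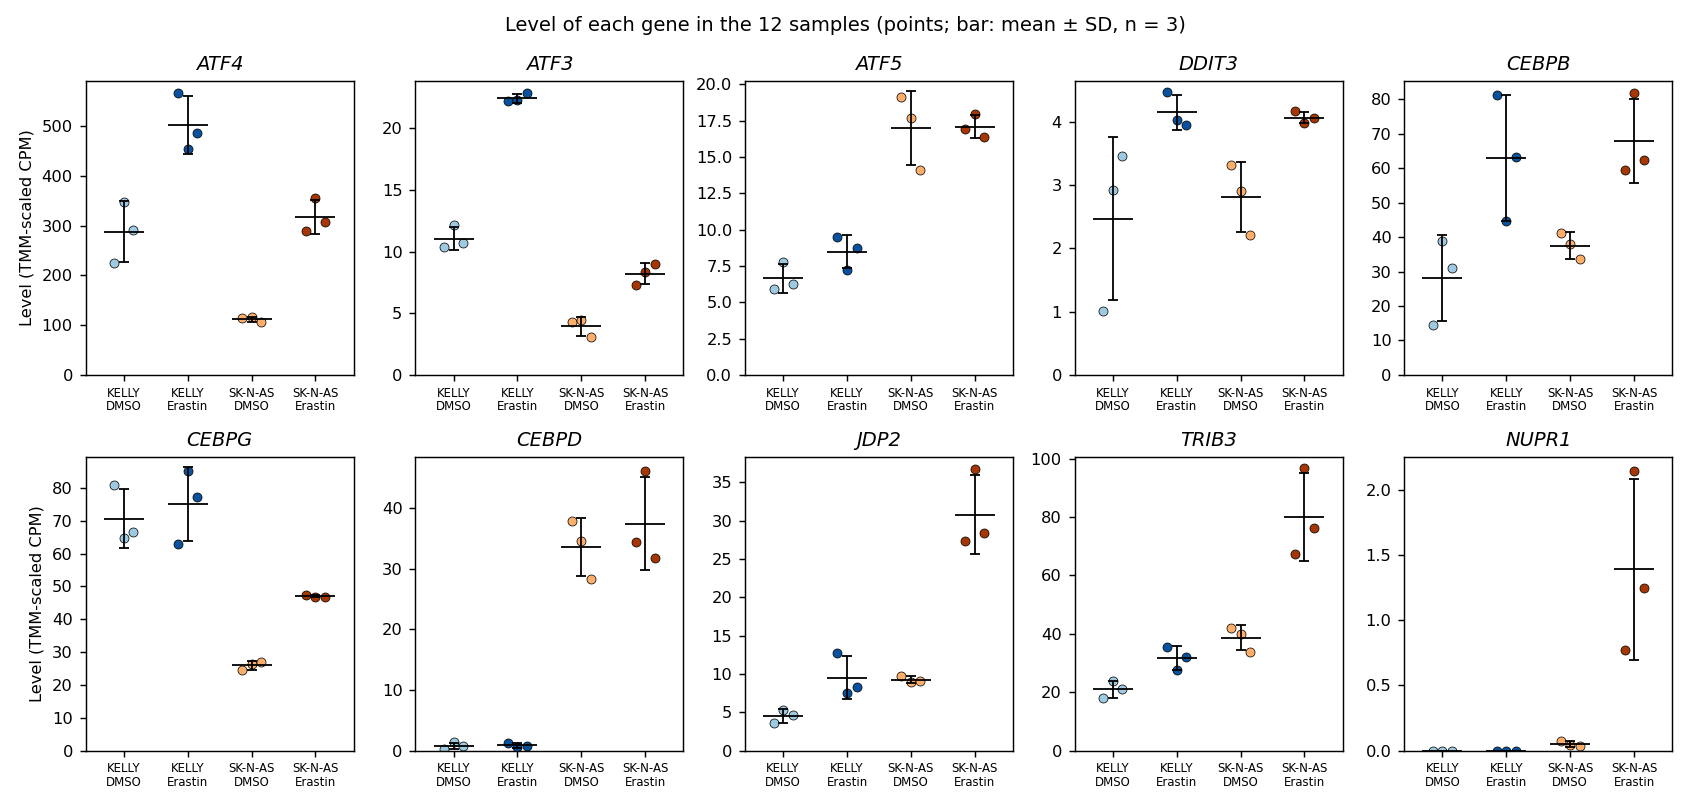
Level of each of the 10 genes (vertical axes, TMM-scaled CPM, each from 0 on its own scale) in the 3 samples of the 4 groups, with points for samples and bars for the mean ± SD. ATF4 with Erastin sits between 289 and 355 CPM in SK-N-AS, above its DMSO samples and overlapping with the KELLY DMSO samples, and CEBPD is near 1 CPM in KELLY but near 35 in SK-N-AS.

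Without Erastin, SK-N-AS cells held ATF4 at 114, 115 and 106 CPM, against 289, 355 and 307 CPM after it. The groups stood well apart, and the DMSO samples were close to each other. This amounts to a log2 fold change of 1.51 (standard error, SE, 0.09, edgeR adjusted p = 5.16e-06). The values rest on counts of 2826 to 10417 per sample.

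Of the bZIP partners of ATF4, CEBPG was at 24.4, 26.5 and 27.1 CPM with DMSO and at 47.3, 46.9 and 46.9 CPM with Erastin. Its Erastin samples hardly differed from each other. CEBPG rose by 0.87 on the log2 scale (SE 0.09, edgeR adjusted p = 0.000416). CEBPB was at 41.2, 37.9 and 33.6 CPM with DMSO and 59.6, 82.0 and 62.4 CPM with Erastin, with Erastin replicate 2 the highest. Its log2 fold change was also 0.87 (SE 0.13, edgeR adjusted p = 0.00583), but without DMSO replicate 2 the adjusted p was 0.0609 and with all 12 samples in 1 fit it was 0.895. CEBPD was at 37.8, 34.6 and 28.4 CPM with DMSO and at 34.4, 46.1 and 31.7 CPM with Erastin. These ranges overlapped, and the log2 fold change of CEBPD was 0.17 (SE 0.15, edgeR adjusted p = 0.844).

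JDP2 had the largest relative change among the genes with more than a few counts. It was at 9.75, 8.91 and 9.10 CPM with DMSO and at 27.3, 36.7 and 28.3 CPM with Erastin, a log2 fold change of 1.74 (SE 0.13, edgeR adjusted p = 2.08e-05). ATF3, its relative, was at 4.27, 4.45 and 3.08 CPM with DMSO and at 7.30, 8.34 and 8.97 CPM with Erastin, a log2 fold change of 1.07 (SE 0.17, edgeR adjusted p = 0.00851). Both repressors thus had all Erastin samples above all DMSO samples. Per kilobase, the level of ATF3 over that of JDP2 lay between 0.939 and 1.39 with DMSO and between 0.631 and 0.878 with Erastin.

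TRIB3, which restrains ATF4, was at 42.1, 40.0 and 33.8 CPM with DMSO and at 67.2, 96.7 and 76.2 CPM with Erastin, a log2 fold change of 1.06 (SE 0.13, edgeR adjusted p = 0.00179). NUPR1 had 2, 1 and 1 counts in the DMSO samples and 21, 63 and 32 counts in the Erastin samples. Summed over samples and scaled to library size, these 116 counts with Erastin against 4 with DMSO gave a ratio of 27.9, with an exact 95% counting interval from 10.6 to 104 that does not include the spread between samples. NUPR1 entered the test only through its Erastin samples, so that the adjusted p of 0.00217 from edgeR adds no support. Even with Erastin its level stayed between 0.774 and 2.14 CPM.

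The death-associated DDIT3 was at 3.31, 2.90 and 2.22 CPM with DMSO and at 4.17, 3.98 and 4.06 CPM with Erastin. All Erastin samples were above all DMSO samples, but the log2 fold change of 0.54 (SE 0.18) had an adjusted p of 0.343 from edgeR. With the GC trend removed and the replicate number as a block, the edgeR adjusted p of DDIT3 was 0.0471. ATF5 was at 19.1, 17.7 and 14.1 CPM with DMSO and at 17.0, 17.9 and 16.4 CPM with Erastin, so that the Erastin samples lay inside the DMSO range. Its log2 fold change was 0.02 (SE 0.13, edgeR adjusted p = 0.981). Both genes overlap a neighbour on the opposite strand, with 27.16% of the exon bases of DDIT3 shared with MARS1 (MARS in the tables) and 19.54% of those of ATF5 shared with NUP62. CEBPB shares 12.56% of its exon bases with the antisense CEBPB-AS1. NUPR1 shares 16.5% of its exon bases with a long non-coding RNA gene on the same strand, ENSG00000289754, which has no row of its own in the counts. Its part in the NUPR1 counts was not tested. The strand setting of the counting is not given in the sources used here, and MARS itself rose in SK-N-AS (log2 fold change 0.72, edgeR adjusted p = 0.000793). In KELLY, MARS met the threshold of the methods (log2 fold change 0.67, edgeR adjusted p = 0.636), so that the same limit holds for DDIT3 there.

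In KELLY cells, 5 genes met the threshold of the methods, all upward. CEBPB was 2.25-fold, JDP2 2.13-fold, ATF3 2.03-fold, ATF4 1.75-fold and TRIB3 1.52-fold higher with Erastin. The background over 16258 genes tested was 2.03% in either direction and 1.29% upward. None of the genes had an adjusted p under 0.05 with edgeR, while the 5 had an unadjusted p of at most 0.05, and 1 of them, ATF3, passed with DESeq2. Of all genes tested, 0.00615% passed, which is the 1 gene STC2. NUPR1 had 0 counts in all 6 KELLY samples and was not tested. Every Erastin sample lay above every DMSO sample for 6 genes, the 5 and DDIT3, against 4.2% of all genes tested.

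Across the KELLY libraries, GC-rich genes were over-represented in some and under-represented in others, and the values of the GC-rich genes followed this. Its part in the results was tested only by removing the trend. Spearman's correlation across 10038 genes, which are not independent replicates, between GC content and how far each gene deviated in a library from its average in that line was -0.87, 0.77 and -0.53 for DMSO and 0.90, -0.73 and 0.27 for Erastin. For SK-N-AS libraries it was 0.83, 0.28 and -0.82 with DMSO and -0.33, 0.50 and -0.52 with Erastin. The transcripts of CEBPB (66.2% GC), CEBPD (66.0%), TRIB3 (61.5%) and ATF5 (59.7%) are the most GC-rich of the 10, and CEBPG is the most GC-poor (41.3%). For the 9 genes tested, the fold change in KELLY is therefore also given with each library's GC trend removed.

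ATF4 in KELLY was at 225, 347 and 291 CPM with DMSO and at 568, 453 and 486 CPM with Erastin. The groups did not overlap, although the DMSO samples were spread more widely than in SK-N-AS. On the log2 scale the difference was 0.81 (SE 0.19, edgeR adjusted p = 0.770). With the GC trend removed, the ATF4 samples drew together, from 278 to 321 CPM with DMSO and from 470 to 487 CPM with Erastin, and the log2 fold change was 0.68 (edgeR adjusted p = 0.00663). Relative to its mean, ATF3 had the smallest spread of the 9 genes detected in KELLY. It was at 10.3, 12.2 and 10.7 CPM with DMSO and at 22.2, 22.3 and 22.9 CPM with Erastin, a log2 fold change of 1.02 (SE 0.16, edgeR adjusted p = 0.342). For ATF3 the adjusted p was 0.00143 with DESeq2. Its log2 fold change was 0.96 with the GC trend removed (edgeR adjusted p = 0.00569). With the GC trend removed and the replicate number as a block, neither ATF4 nor ATF3 passed the adjusted p.

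CEBPB, the GC-rich partner of ATF4, was at 14.5, 38.8 and 31.1 CPM with DMSO and at 81.2, 44.7 and 63.2 CPM with Erastin. Within each group its order followed that of the GC trends. On the log2 scale CEBPB differed by 1.17 (SE 0.37, edgeR adjusted p = 0.770), and it was 0.86 without DMSO replicate 1 and 0.79 with the GC trend removed (adjusted p = 0.0522). JDP2 was at 3.54, 5.28 and 4.62 CPM with DMSO and at 12.7, 7.52 and 8.33 CPM with Erastin. Erastin replicate 1 was the highest for both genes. JDP2 differed by 1.09 on the log2 scale (SE 0.27, edgeR adjusted p = 0.770), and 0.98 with the GC trend removed (adjusted p = 0.160).

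TRIB3 was at 17.9, 23.8 and 21.1 CPM with DMSO and at 35.6, 27.5 and 31.9 CPM with Erastin, and its log2 fold change was 0.60 (SE 0.18, edgeR adjusted p = 0.770). Its call by the threshold of the methods hung on single libraries. The value was 0.50 on the log2 scale without DMSO replicate 1 and 0.50 without Erastin replicate 1, both under the fold limit. With the GC trend removed it was 0.26 (edgeR adjusted p = 0.688), and the samples of the groups then overlapped, with 20.3 to 28.0 CPM for DMSO and 23.7 to 30.7 CPM for Erastin.

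DDIT3 was at 1.01, 2.93 and 3.46 CPM with DMSO and at 4.47, 4.03 and 3.95 CPM with Erastin in KELLY. DMSO replicate 1, with 26 counts, stood far below the others. The log2 fold change of DDIT3 was 0.75 (SE 0.41, edgeR adjusted p = 0.770) and 0.38 without that sample. DDIT3 differed by 0.71 on the log2 scale with the GC trend removed (edgeR adjusted p = 0.688). CEBPG was at 80.9, 64.7 and 66.4 CPM with DMSO and at 63.0, 85.3 and 77.1 CPM with Erastin. These samples overlapped, with a log2 fold change of 0.09 (SE 0.18, edgeR adjusted p = 0.846). With the GC trend removed, all Erastin samples of CEBPG (76.8 to 82.5 CPM) lay above all DMSO samples (63.6 to 69.1 CPM), with a log2 fold change of 0.27 and an adjusted p of 0.473. ATF5 (5.91, 7.80 and 6.23 CPM with DMSO, 9.48, 7.21 and 8.76 CPM with Erastin) had a log2 fold change of 0.36 (SE 0.20), and of 0.05 with the GC trend removed. CEBPD was at the edge of detection, with 8 to 33 counts per sample, and its log2 fold change was 0.14 (SE 0.57), and -0.23 with the GC trend removed.

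**Figure D2:**
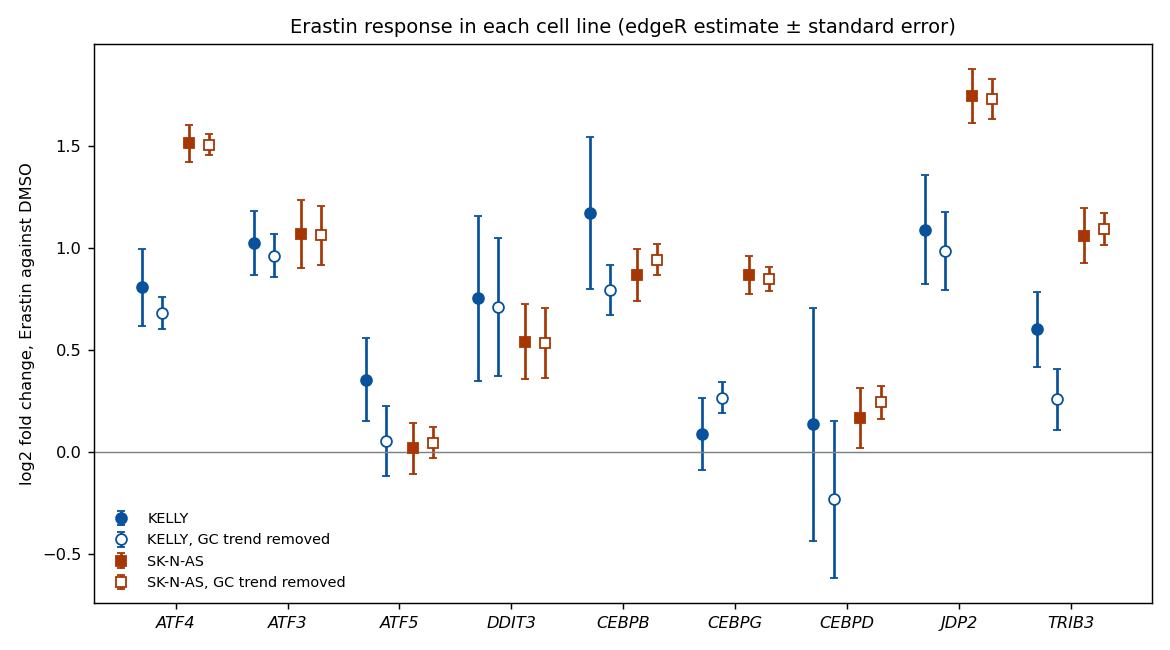
Log2 fold change of Erastin against DMSO (vertical axis) of the 9 genes tested in both lines, with circles for KELLY and squares for SK-N-AS, filled for the edgeR estimate and open for the estimate with each library's GC trend removed, and bars for the standard error. In KELLY the open points lie below the filled ones for all genes but CEBPG, most of all for CEBPB, TRIB3, ATF5 and CEBPD. In SK-N-AS the open and filled points lie close together.

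Whether Erastin acted differently on the lines was tested by fitting all 12 samples with a term for the response that differs by line. None of the 9 genes that could be fitted had an adjusted p under 0.05 with edgeR or with DESeq2, and 2 of them, ATF4 and CEBPG, had an unadjusted p of at most 0.05, against 4.25% of the 18239 genes tested. The log2 fold change of ATF4 was larger in SK-N-AS by 0.70 (SE 0.21, edgeR adjusted p = 0.811) and that of CEBPG by 0.77 (SE 0.19, edgeR adjusted p = 0.811). With the GC trend removed these differences were 0.81 (edgeR adjusted p = 0.00194) and 0.57 (edgeR adjusted p = 0.0199). With the replicate number also a block, neither passed. The response of ATF3 differed between the lines by 0.04 (SE 0.22) and that of JDP2 by 0.65 (SE 0.30, edgeR adjusted p = 0.811). NUPR1 allowed no fitted difference, since it was at 0 in KELLY, where 3 counts would correspond to 0.105 to 0.123 CPM. With Erastin, the lowest SK-N-AS sample was at least 6.29-fold higher than the highest KELLY limit of 3 counts per library.

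The control cells of the lines differed in most of these genes. With DMSO, 3 of the 9 genes tested were lower in SK-N-AS and 4 were higher at an adjusted p under 0.05, but 61.3% of all 17089 genes tested differed between the lines as well, so that the count says little about these genes in particular. CEBPD showed the widest gap, 42.5-fold, with 28.4 to 37.8 CPM in SK-N-AS and 0.311 to 1.34 CPM in KELLY (log2 difference 5.41, SE 0.40, edgeR adjusted p = 5.03e-06). The lower genes in SK-N-AS were ATF4 itself, 2.60-fold (log2 difference -1.38, SE 0.17), its partner CEBPG, 2.75-fold (-1.46, SE 0.15), and ATF3, 2.84-fold (-1.50, SE 0.20). ATF5 was 2.53-fold higher in SK-N-AS (log2 difference 1.34, SE 0.20), JDP2 2.05-fold (1.03, SE 0.20) and TRIB3 1.83-fold (0.87, SE 0.17). CEBPB (log2 difference 0.40, SE 0.31, edgeR adjusted p = 0.289) and DDIT3 (0.17, SE 0.41, edgeR adjusted p = 0.736) did not pass. NUPR1 had at most 2 counts in any control sample.

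After Erastin, ATF4 in SK-N-AS (289 to 355 CPM) overlapped with the untreated KELLY cells (225 to 347 CPM). It was the 1 gene of the 10 for which these ranges overlapped. ATF3 and CEBPG with Erastin in SK-N-AS were still below all KELLY DMSO samples, and the other 7 genes were above them. These are levels side by side, with no test.

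Per kilobase of mRNA, ATF4 was the highest of the 10 genes in all 4 groups. In KELLY with DMSO it stood at 203 CPM per kilobase, followed by CEBPG (18.9), CEBPB (15.3), TRIB3 (8.88), ATF3 (5.70), ATF5 (3.31), DDIT3 (2.73), JDP2 (0.833) and CEBPD (0.626). In that order the samples of CEBPG and CEBPB, of CEBPB and TRIB3, of ATF5 and DDIT3, and of JDP2 and CEBPD overlapped. In SK-N-AS with DMSO the order was ATF4 (78.9), CEBPD (26.8), CEBPB (20.4), TRIB3 (16.4), ATF5 (8.46), CEBPG (6.97), DDIT3 (3.11), ATF3 (2.03), JDP2 (1.72) and NUPR1 (0.00951), and ATF5 overlapped with CEBPG and ATF3 with JDP2. With DMSO, CEBPD was thus the lowest of the 3 C/EBP genes in KELLY and the highest in SK-N-AS.

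With Erastin the levels per kilobase in KELLY were 354 for ATF4, 34.3 for CEBPB, 20.1 for CEBPG, 13.4 for TRIB3, 11.6 for ATF3, 4.60 for DDIT3, 4.23 for ATF5, 1.77 for JDP2 and 0.686 for CEBPD. TRIB3 and ATF3 overlapped, as did DDIT3 and ATF5. In SK-N-AS with Erastin they were 223 for ATF4, 37.0 for CEBPB, 34.0 for TRIB3, 29.9 for CEBPD, 12.6 for CEBPG, 8.52 for ATF5, 5.72 for JDP2, 4.50 for DDIT3, 4.23 for ATF3 and 0.262 for NUPR1. CEBPB overlapped with TRIB3, TRIB3 with CEBPD, and DDIT3 with ATF3. Within single samples, the level of ATF4 over that of CEBPG per kilobase lay between 7.32 and 14.1 in KELLY with DMSO and 14.0 and 23.7 with Erastin. The same ratio for SK-N-AS was 10.3 to 12.3 with DMSO and 16.1 to 19.9 with Erastin. Set against TRIB3, ATF4 lay between 20.9 and 27.4 times its level in the KELLY samples, whereas in the SK-N-AS samples the ratio was 4.50 to 7.15.

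**Figure D3:**
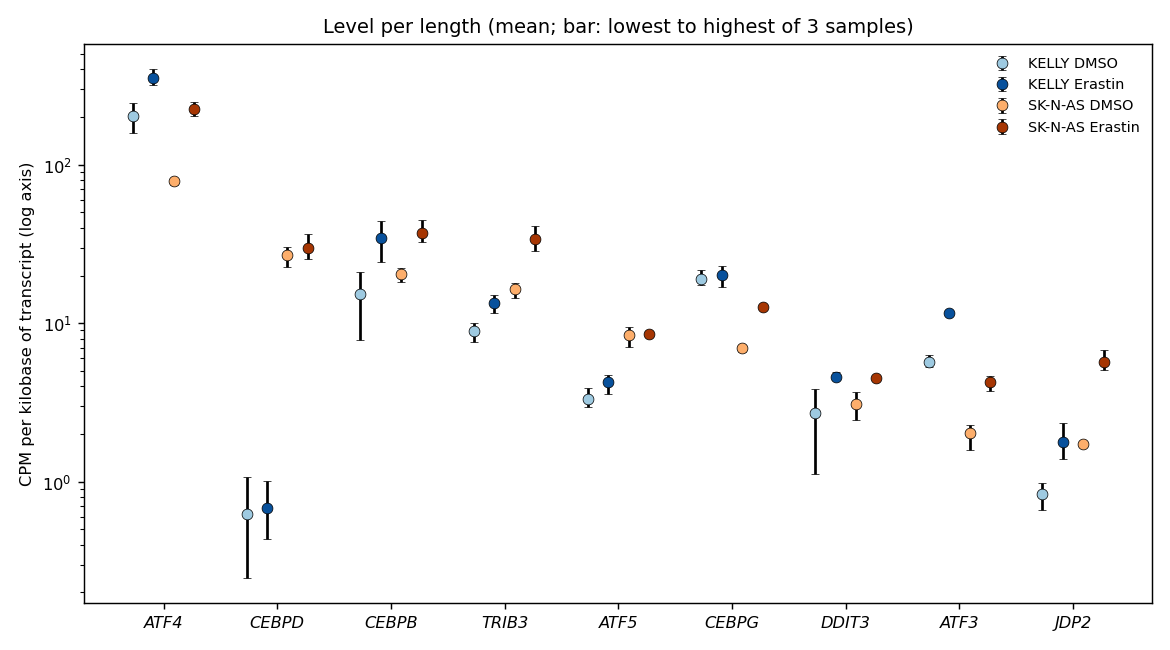
Level per kilobase of mRNA (CPM per kilobase, log axis) of the 9 genes detected in both lines, with a point for the mean of 3 samples and a bar from the lowest to the highest, ordered by SK-N-AS with DMSO. ATF4 is the highest in each group, at 78.9 to 354 CPM per kilobase, and CEBPD is the gene with the widest gap between the lines.

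The genes whose pattern over the 12 samples was most like that of ATF4 were sought by Pearson's r on log2 CPM centred on the mean of each line, among 12536 genes. The samples share treatment and library composition, so that r describes likeness only. Among the 10 genes, JDP2 (r = 0.990) was the most like ATF4, TRIB3 followed (0.980), then ATF3 (0.927), CEBPB (0.849), NUPR1 (0.832), CEBPG (0.751), DDIT3 (0.722), ATF5 (0.471) and CEBPD (0.436). These values move with the GC trend of the libraries. Over the 6 KELLY samples, r of CEBPG to ATF4 was -0.16 and, with the GC trend removed, 0.967, while r of TRIB3 went from 0.990 to 0.444 and that of ATF5 from 0.913 to 0.0228. Over the 6 SK-N-AS samples, r of CEBPG was 0.983 and, with the trend removed, 0.989. With the trend removed, r over all 12 samples was 0.983 for JDP2, 0.980 for CEBPG, 0.933 for CEBPB, 0.914 for ATF3 and 0.904 for TRIB3. Outside the 10 genes, the most alike were AARS (0.992), PHGDH (0.986), SLC7A1 (0.984), CARS (0.983) and YARS (0.983). This ranking was not repeated with the GC trend removed. AARS, CARS and YARS encode tRNA synthetases for alanine, cysteine and tyrosine, and PHGDH catalyses the entry step of serine synthesis. AARS, SLC7A1 and CARS are shown above with a composite match. PHGDH is not among the 10 targets with one, and YARS was not on the target list. Of the targets with a match that are not shown, SLC3A2, MARS, NARS and IARS had KELLY log2 fold changes of 0.97, 0.67, 0.18 and 0.01. In SK-N-AS these were 1.05, 0.72, 0.44 and 0.49, and FGF21 had at most 2 counts in any sample. Whether match and response go together was not tested.

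The ATF4 target list was next compared. In KELLY, 29 of 42 targets tested met the threshold of the methods, all upward, against 1.29% of all genes, with a median log2 fold change of 0.89 over the 42 against 0.01 over all genes tested. STC2, a secreted glycoprotein of calcium balance, was the 1 target with an adjusted p under 0.05 in KELLY (log2 fold change 2.59, SE 0.18, edgeR adjusted p = 0.00986), and this call was lost without DMSO replicate 1, 2 or 3 or Erastin replicate 3 (adjusted p up to 0.301). In SK-N-AS, 28 of 42 met the threshold of the methods upward, against 1.34% of all genes, 31 rose at an adjusted p under 0.05, against 0.46%, and 0 fell, with a median of 0.98 against -0.01 over all genes. Leaving out genes under a mean log2 CPM of 1, CHAC1 led the list (log2 fold change 4.56), before PHGDH (3.76), ADM2 (3.18), a peptide of the calcitonin family, and INHBE (2.61), an inhibin subunit. ULBP1, the ligand of the NK cell receptor NKG2D that the study turns on, is also among the listed targets, and its SK-N-AS libraries held 0, 2 and 0 counts with DMSO against 13, 21 and 24 after Erastin. Scaled to library size, the summed 58 against 2 counts gave a ratio of 27.9 (exact 95% counting interval 7.37 to 235.5). This interval does not include the spread between samples. ULBP1 also entered the test only through its Erastin samples, so that its edgeR adjusted p of 0.0144 adds no support. The same holds in SK-N-AS for INHBE (14, 6 and 23 counts with DMSO) and ASNS (35, 9 and 47), and in KELLY for INHBE (16, 16 and 11). These calls are part of the 28, 31 and 29 above. In KELLY the log2 fold change of ULBP1 was 1.38 (SE 0.20, edgeR adjusted p = 0.319). The response of STC2 was smaller in SK-N-AS by 2.02 on the log2 scale (interaction -2.02, SE 0.19, edgeR adjusted p = 0.00224). Its mean level with DMSO was already 60.2 CPM in SK-N-AS, against 4.55 CPM in KELLY. With Erastin these means were 89.3 and 27.3 CPM. With the replicate number as a block the adjusted p of STC2 was 0.562.

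Few of the other bZIP genes were called. Of 45 listed, such as the JUN, FOS, CREB and MAF genes, 36 were tested in KELLY and 0 met either rule, against 2.03% of all genes by the threshold of the methods, with a median log2 fold change of 0.20. In SK-N-AS 1 of 38 tested rose by either rule and 0 fell, with a median of 0.03. Of all genes there, 2.67% met the threshold of the methods in either direction and 1.34% upward, and 0.46% rose at an adjusted p under 0.05. Neither count is a result about bZIP genes. The gene that rose was XBP1, a factor of the unfolded protein response. It went from 84.8, 91.6 and 95.2 CPM to 131, 161 and 146 CPM (log2 fold change 0.70, SE 0.09, edgeR adjusted p = 0.00309). TRIB1 and TRIB2, the paralogs of TRIB3, passed in neither line, with log2 fold changes of 0.18 and -0.31 (KELLY) or -0.05 and -0.23 (SK-N-AS).

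Upstream of ATF4, 10 genes of the eIF2alpha kinases, phosphatases and their regulators were listed, and 0 met either rule in either line, which at 2.03% and 2.67% of all genes is no result about these genes. The kinase genes EIF2AK1, EIF2AK2, EIF2AK3 and EIF2AK4 had log2 fold changes of -0.20 to 0.05 in KELLY, while those in SK-N-AS were -0.05 to 0.29. Their activity is set by phosphorylation and was not measured here. Downstream of DDIT3, 5 targets were listed. BBC3, which encodes the cell death protein PUMA, was at 1.05, 7.03 and 3.22 CPM with DMSO and at 24.0, 7.95 and 10.0 CPM with Erastin in KELLY, in the order of the GC trends. It met the threshold of the methods there (log2 fold change 1.90, SE 0.67, edgeR adjusted p = 0.770), but not without DMSO replicate 3 (1.79) or Erastin replicate 1 (1.26), and its log2 fold change was 1.46 without DMSO replicate 1, 2.70 without DMSO replicate 2 and 1.47 with the GC trend removed. In SK-N-AS BBC3 did not meet it (0.57, adjusted p = 0.514), and the other 4 targets met it in neither line.

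**Figure D4:**
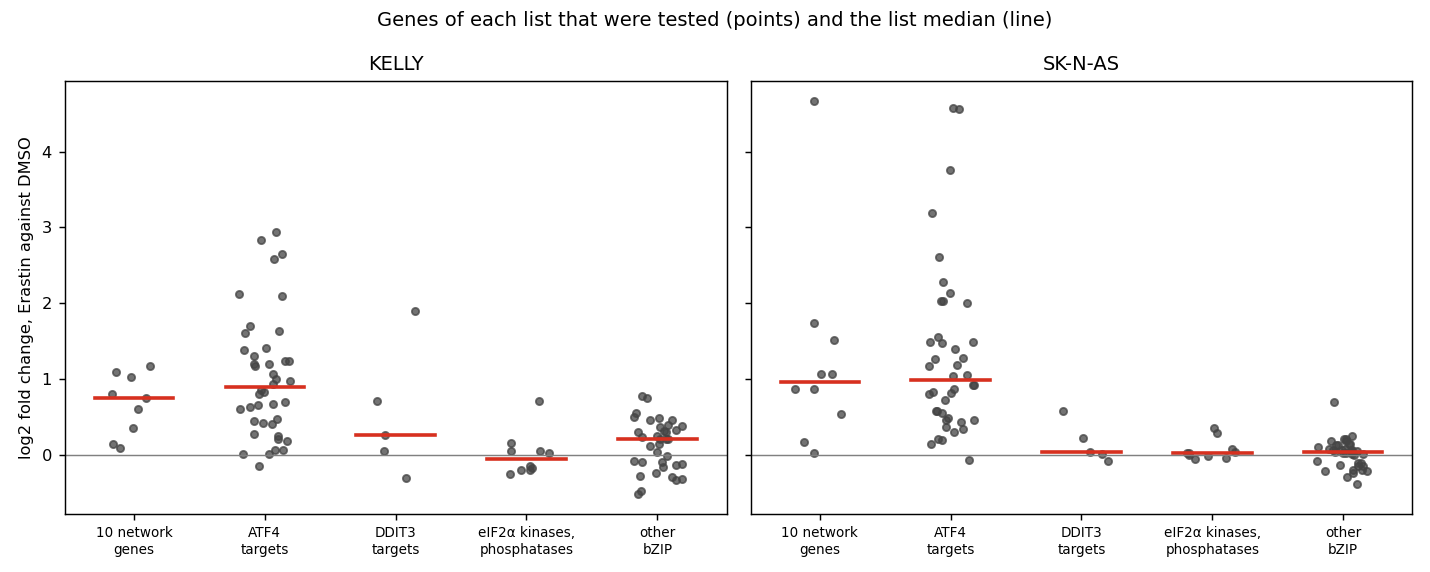
Log2 fold change of Erastin against DMSO (vertical axis) of each tested gene of the 10 network genes, the ATF4 targets, the DDIT3 targets, the eIF2alpha kinases and phosphatases and the other bZIP genes in KELLY (left) and SK-N-AS (right), with a point for a gene and a line for the median. The medians of the ATF4 targets are 0.89 and 0.98, and those of the other bZIP genes 0.20 and 0.03.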

How the data were processed

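The authors trimmed 150-base paired-end reads with Trimmomatic, aligned to GRCh38 and used HTSeq with GENCODE 29 for gene counting. The aligner and the strand setting are not given in the sources used here. They deposited raw counts per gene with no normalization, in 1 table per line, and both tables hold the same 58735 rows, of which 1568 repeat a name. They kept protein-coding genes and used DESeq2 in their own analysis, while genes of all biotypes were kept here.

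Each line was fitted alone in R 4.3.3 with edgeR 4.0.16 (filterByExpr, TMM, quasi-likelihood test, Benjamini-Hochberg adjustment over all genes tested). Control samples of the lines, and the interaction over all 12 samples, were fitted likewise on the joined counts. DESeq2 1.42.0 and limma 3.58.1 (voom) served as alternatives. The GC trend was removed by a loess offset (span 0.5, degree 2) of each library's log2 ratio on GC content, fitted to genes at or above a mean log2 CPM of 3. Group ranges and r with the trend removed were added after seeing the data. Other alternatives were library scaling, filters, the replicate block and leaving out each sample. Positions, lengths and overlaps came from GENCODE 44. Standard errors were taken from the fold change and the F statistic. Total counts were 24169796 to 29835670 per sample, and p-values measure the spread between wells. No 2 samples were copies, and 0 columns belonged to other samples.

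The genes, lists and alternatives were chosen with earlier results of these data known, and the lists were written from general knowledge. All 10 genes are named throughout. From each list the text names up to 4 genes with the largest change among those called and not under a mean log2 CPM of 1, the 5 genes most like ATF4 (log2 of CPM + 0.5) and ULBP1 and MYCN. Other genes, such as MARS, the TRIB paralogs and the eIF2alpha kinases, were named after their values were seen. Protein sequences were not used here, and 1 marker list is not reported here.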

Additional observations from a re-analysis of the deposited data

How the results depend on the processing

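The number of the 10 genes at the threshold of the methods was 4 to 5 for KELLY, and 7 to 8 for SK-N-AS, with 1 replicate left out. At an adjusted p under 0.05 it stayed at 0 in KELLY, between 6 and 7 in SK-N-AS, at 7 between the control lines and at 0 for the interaction. With all SK-N-AS samples kept, it was 7 with the GC trend removed. With the replicate block added to that, it was 9, all but ATF5. In KELLY it was 0 with edgeR, 1 with DESeq2 (ATF3), 2 with the GC trend removed (ATF4 and ATF3) and 1 with all 12 samples in 1 fit (ATF3). For the interaction it was 0 and, with the GC trend removed, 2 (ATF4 and CEBPG). With the GC trend removed and the replicate number as a block, it was 0 in KELLY and 0 for the interaction. Without KELLY DMSO replicate 2, ATF4 no longer met the unadjusted p and fold limits for the interaction. DESeq2 gave no adjusted p for NUPR1, and the filter of 10 counts in every sample removed it. The causes were not tested.

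Whether the replicate numbers pair the samples cannot be told from the counts, because the GC trends enter each sample's deviations. Deviations of same-numbered DMSO and Erastin samples correlated at -0.846, -0.892 and -0.243 in KELLY and at -0.189, 0.299 and 0.551 in SK-N-AS. With the number as a block, 4 genes met the threshold of the methods in KELLY (not TRIB3) and 0 passed the adjusted p, and in SK-N-AS 7 passed either rule. Over all genes, the count at an adjusted p under 0.05 went from 1 to 0 (KELLY) or from 106 to 308 (SK-N-AS) with the block. With the GC trend removed it was 30 or 1110. KELLY counts were also 25 with DESeq2, 19 with no filter, 17 with all 12 samples and 0 to 2 with 1 replicate left out, and SK-N-AS counts 203, 265, 46 and 53 to 855. At the threshold of the methods, KELLY had 330 genes, 980 with no filter, 203 with protein-coding genes alone, 114 with the block, 767 with all 12 samples and 197 to 996 with 1 replicate left out, and SK-N-AS 429 genes and 851 with no filter.

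Signs turned only for log2 fold changes that had not passed and for r of CEBPG to ATF4 in KELLY (-0.16, and 0.967 with the GC trend removed). CEBPD in KELLY was -0.23 with the GC trend removed and -0.17 with the block added, and ran from -0.26 to 0.745 with 1 replicate left out, where CEBPG ran from -0.0102 to 0.20. In SK-N-AS CEBPD ran from -0.0033 to 0.27 and ATF5 from -0.10 to 0.11. DDIT3 between the control lines ran from -0.21 to 0.50. For the interaction, CEBPB was 0.14 with the GC trend removed and 0.12 with the block added, and CEBPD was -0.12 with voom, -0.0029 with no filter and -0.0400 with the block. With 1 replicate left out, the interaction ran from -0.61 to 0.0055 for CEBPB, from -0.57 to 0.40 for CEBPD, from -0.11 to 0.13 for ATF3 and from -0.55 to 0.16 for DDIT3.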
